A study of Mus musculus with 4 samples.

Results

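Notch signaling genes were examined in CD31-selected cells of the mouse lung, which were labelled as endothelial cells. The genes were 10 chosen by name: the receptors Notch1, Notch2, Notch3 and Notch4, the ligands Dll1, Dll4, Jag1 and Jag2, and the target genes Hes1 and Hey1. All 10 were found among the 24063 gene symbols of the count tables. Each was represented by 1 RefSeq transcript, so no choice between transcripts was needed. Cells were taken from the lungs of mice 8 weeks old, of the strain C57BL6 in the labels and C57BL6J in the study's methods, male by both, with anti-CD31 magnetic beads. Of the 4 libraries, 2 came from mice 7 days after unilateral pneumonectomy (PNX), in which the left lung is removed, and 2 from mice that had a thoracotomy without PNX (sham), with the cells of 2 mice pooled in each library. No allele or further agent separated the groups. Because each library is a pool, the spread between libraries does not show the spread between mice.

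Facts that hold for all libraries bear on every value below. Counts on 1 transcript per gene came to between 41367438 and 50952879 per library, and the Notch genes together took between 0.150% and 0.169% of them. Libraries of the same group differed little more than counting noise would give, with a mean chi-square per gene of 1.74 in sham and 1.51 after PNX, against 128 and 114 between sham and post-PNX libraries of the same number. All 44 genes of chromosome Y in the tables were at 0 counts in every library, and Xist, the RNA of the inactive X chromosome of females, had between 29890 and 36875 counts, which goes against the stated male sex in all 4 libraries. Endothelial cells were present, with Pecam1 (CD31) at 954 ± 1.74 (SD, n = 2) and Cdh5 (VE-cadherin) at 959 ± 4.4 (SD, n = 2) deposited TPM in sham libraries, but the libraries were not purely endothelial. Without a library of unselected lung, enrichment of these cells could not be measured. The airway gene Scgb1a1 and the alveolar type 2 cell gene Sftpc stood at 10798 and 7384 TPM in the same libraries, above both endothelial genes, and Ptprc (CD45), a gene of all leukocytes, was at 72.0 TPM. The signal of a Notch gene in these libraries therefore comes from an unknown mixture of cells.

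In Notch signaling, a ligand on one cell binds a receptor on its neighbor, the receptor is cut by ADAM proteases and by gamma-secretase, and the freed intracellular part joins the DNA-binding protein RBPJ and the MAML coactivators to switch on genes such as those of the Hes and Hey repressors. In blood vessels, Dll4 on sprouting tip cells signals to Notch1 on the cells behind them and limits how many new tips form. Notch4 is a receptor found mainly in endothelium, and Notch3 is best known from smooth muscle cells and pericytes, the mural cells that surround vessels.

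All 10 genes were expressed well above the lowest measurable level, and none changed by 2-fold. Libraries of both groups were set against each other with edgeR's quasi-likelihood test on 16208 genes, with Benjamini-Hochberg adjustment over all of them. Each log2FC below is the log2 fold change of post-PNX over sham libraries, negative where a gene was lower after PNX, with its standard error (SE). Of the 10 genes, 7 were lower and 2 higher after PNX at an adjusted p under 0.01, and Notch4 did not pass. The share of all genes tested that passed was 57.1%, with 27.8% lower and 29.3% higher. Among the 3674 genes with at least as many normalized counts as the lowest Notch gene, 79.2% passed, 44.2% being lower and 35% higher, so a call at this threshold was common for genes of this abundance. The median log2 fold change of the Notch genes was -0.13, against 0.00 over all genes tested and -0.04 over those 3674. With the study's threshold of a log2 fold change beyond 1 added, 0 of the 10 genes were called by edgeR and 0 by DESeq2, where edgeR called 7.56% of all genes (5.9% higher and 1.66% lower). In 9 of the 10 genes the groups did not overlap, as in 81.2% of all genes (40.8% with both post-PNX libraries above and 40.5% with both below). In bulk libraries such as these, fewer cells of a type and less RNA per cell cannot be told apart.

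**Figure D1:**
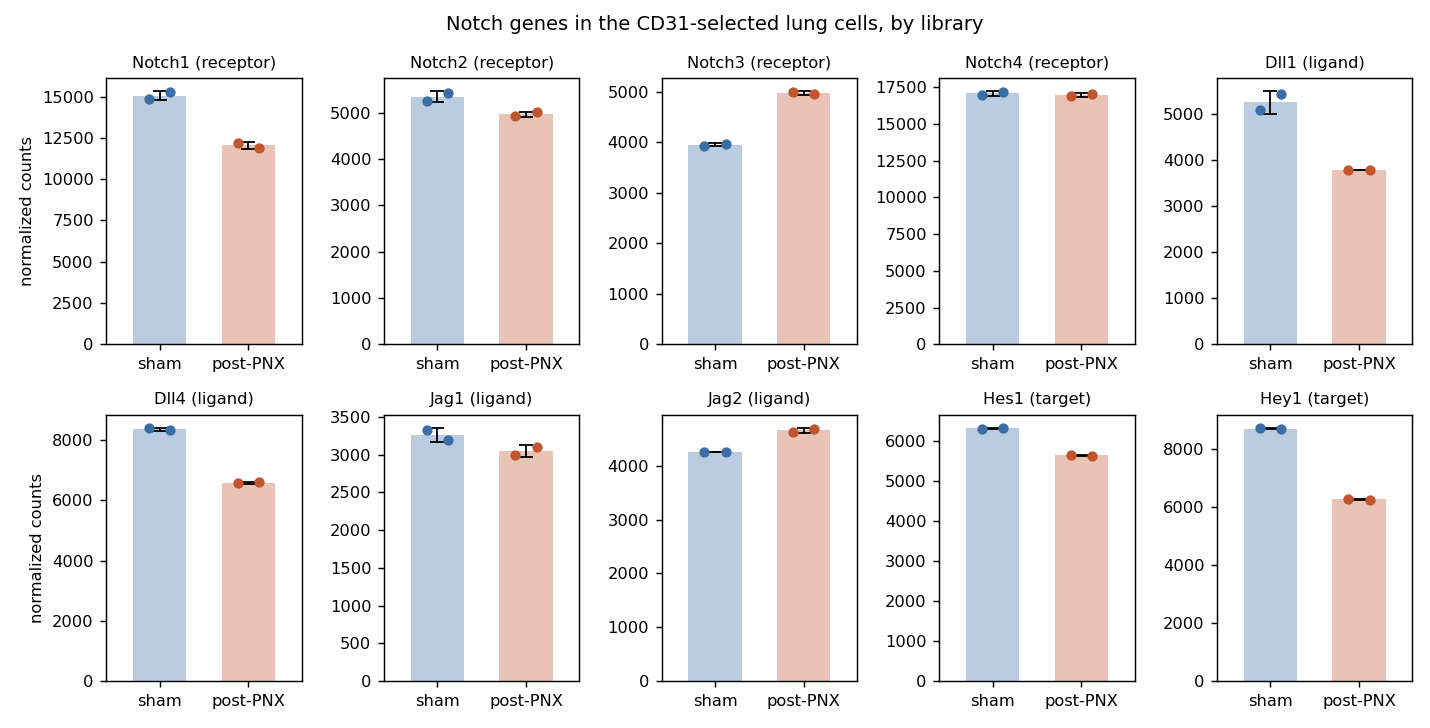
Normalized counts (TMM scaling, y axes from 0) of the 10 Notch genes in the 2 sham (blue) and 2 post-PNX (orange) libraries, with points for libraries, bars for means and error bars for the SD of 2 libraries. The groups overlap only in Notch4, while Notch3 and Jag2 are the genes in which both post-PNX libraries lie above both sham libraries.

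The result depended on how libraries were scaled. With TMM, which assumes that most genes do not change, 12 general endothelial genes had a median log2 fold change of -0.25, 10 of them being lower, 1 (Emcn) higher and Pecam1 not passing. Scaling the libraries to these 12 genes instead raised the median of all genes by 0.24, and values under this scaling are given below as endothelial scaling. In it 6 of the Notch genes were higher and 4 lower (56.5% and 9.17% of all genes, 65.6% in all), and 0 of the 10 had a log2FC beyond 1 (8.51% of all genes, 7.95% higher and 0.555% lower). The 4 were Notch1, Dll1, Dll4 and Hey1, which were lower under both scalings. Notch3 and Jag2 were higher under both. Notch2, Notch4, Jag1 and Hes1 changed sign, so their direction is relative to the scaling chosen.

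**Figure D2:**
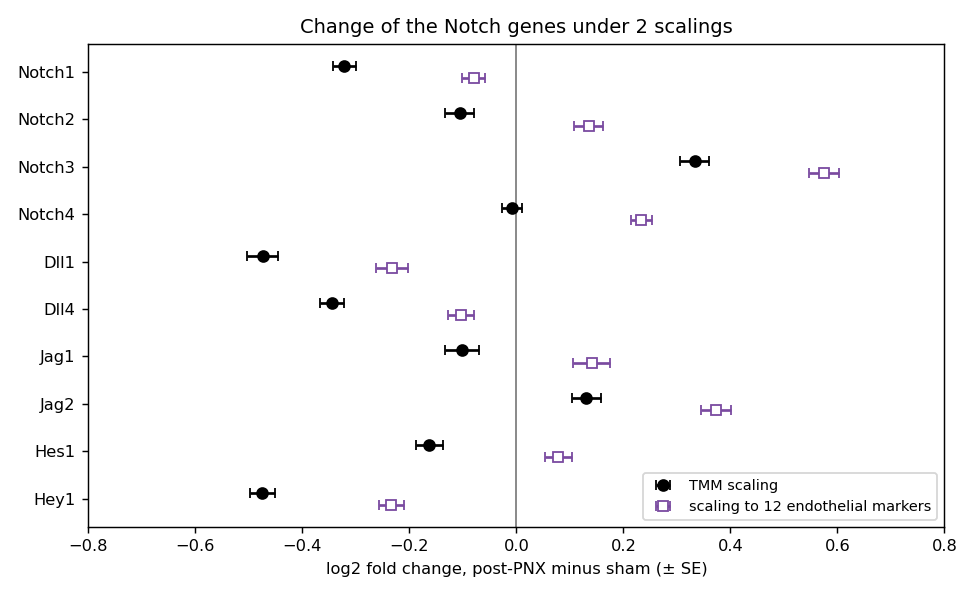
Log2 fold change of each Notch gene, post-PNX minus sham, with its standard error from edgeR's quasi-likelihood fit, under TMM scaling (black circles) and under scaling to 12 endothelial markers (purple squares), values left of 0 being lower after PNX. Notch1, Dll1, Dll4 and Hey1 lie left of 0 and Notch3 and Jag2 right of 0 under both scalings, while Notch2, Notch4, Jag1 and Hes1 cross it.

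Among the receptors, Notch4 was the most abundant per length, with 89.7 ± 0.750 (SD, n = 2) TPM in sham and 87.1 ± 0.568 (SD, n = 2) after PNX. Notch4 lies on chromosome 17 from 34564286 to 34588543 (coordinates here and below are those of the RefSeq annotation of GRCm38.p6, the mm10 assembly). Sham libraries held 16973 and 17195 normalized counts of Notch4, post-PNX libraries 16906 and 17071, so that the groups overlapped. Its log2FC was -0.0081 (SE 0.019, edgeR adjusted p = 0.729). Under endothelial scaling it was 0.23 (edgeR adjusted p = 1.9e-10).

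Notch1, the receptor through which Dll4 restrains sprouting, lies on chromosome 2 from 26457902 to 26503822. Normalized counts of 14861 and 15250 in sham compared with 12193 and 11893 after PNX, and the post-PNX pair lay below the sham pair. Its log2FC was -0.32 (SE 0.021, edgeR adjusted p = 3.0e-21), and 16.5% of all genes tested had a lower one. Under endothelial scaling Notch1 was lower by a small amount, with a log2FC of -0.080 (edgeR adjusted p = 0.00178). Per length, Notch1 went from 55.0 ± 0.961 (SD, n = 2) to 43.0 ± 0.770 (SD, n = 2) TPM.

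Notch2, a widely expressed receptor, lies on chromosome 3 from 98013538 to 98150367. Its normalized counts were 5267 and 5436 in sham and 4932 and 5011 after PNX, and the groups did not overlap. A log2FC of -0.11 (SE 0.027, edgeR adjusted p = 3.9e-04) was small and became 0.14 under endothelial scaling. DESeq2's Wald test gave an adjusted p of 0.0127, short of 0.01. The same loss of the call was seen without sham replicate 2 (edgeR adjusted p = 0.0149) and without PNX replicate 1 (edgeR adjusted p = 0.0167), with log2FC of -0.084 and -0.093.

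Notch3, the receptor of mural cells, lies on chromosome 17 from 32120820 to 32166896 and was the only receptor that rose under TMM scaling (Notch2 and Notch4 were also higher under endothelial scaling). From 3931 and 3966 normalized counts in sham it rose to 4999 and 4947 after PNX, and the groups were far apart. This gave a log2FC of 0.33 (SE 0.027, edgeR adjusted p = 1.1e-16), higher than in 81.1% of all genes tested, and a log2FC of 0.57 under endothelial scaling. Genes of smooth muscle cells and pericytes moved with it. Of 11 such markers 9 were higher at an adjusted p under 0.01 and none was lower, where 29.3% and 27.8% of all genes were. The median log2FC of the 11 was 0.46. Their summed normalized counts were between 22325 and 22489 in sham and between 30407 and 30470 after PNX. Acta2 (smooth muscle actin) had a log2FC of 0.54, Pdgfrb (the PDGF receptor of mural cells) one of 0.27 and the pericyte gene Rgs5 one of 2.09, while Myh11 (smooth muscle myosin) had 0.078 and did not pass (edgeR adjusted p = 0.0393). No marker of the list was at 0 in any library. Markers of macrophages, mesothelium and fibroblasts had larger medians, of 1.22, 1.52 and 1.36, although 2 of the 8 fibroblast markers were lower. What part any of these cells had in the rise of Notch3 was not tested.

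The promoter of Notch3 is shown because Notch3 was the receptor that rose and because its window holds a pair of N boxes (CACNAG, searched on both strands), the site known to be bound by Hes1. The sequence runs from 250 bases before the RefSeq transcription start to 3 bases after it, on the minus strand of chr17:32166888-32167140 (GRCm38.p6), with the N boxes in capitals.
Notch3: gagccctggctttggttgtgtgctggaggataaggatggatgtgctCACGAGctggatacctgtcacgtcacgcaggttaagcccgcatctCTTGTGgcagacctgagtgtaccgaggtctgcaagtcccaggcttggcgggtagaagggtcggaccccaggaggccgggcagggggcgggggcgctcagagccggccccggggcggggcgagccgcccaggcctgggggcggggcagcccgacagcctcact
One box is CACGAG, from 204 to 199 bases before the start, and the other is CTTGTG, on the opposite strand, from 159 to 154 bases before it. An N box was present in 42.5% of all 32851 promoter windows of 300 bases in the RefSeq table and 11.3% held at least 2. Of the Notch genes, 8 had an entry in that table, all but Hes1 and Hey1, and 5 of the 8 held an N box. Notch1, which was lower under both scalings, held 3, more than the 2 of Notch3. Notch2, Dll1 and Dll4 held 1 each. The RBPJ site TGGGAA, which overlaps the longer form GTGGGAA, was found in none of the 9 windows of these 8 genes and in 25.6% of all windows. A match of letters describes the sequence and does not show binding.

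Summed per length, the ligands were lower after PNX by more than the receptors, a difference that was not tested. Over the 4 ligands the sum was 194 ± 1.21 (SD, n = 2) TPM in sham and 160 ± 1.19 (SD, n = 2) after PNX, and over the 4 receptors it was 180 ± 2.19 (SD, n = 2) and 167 ± 0.190 (SD, n = 2). These sums depend on the scaling, unlike the shares of each gene given after the single ligands.

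Dll4, the ligand of tip cells and arteries, lies on chromosome 2 from 119325784 to 119335666 and was the most abundant ligand, with 84.0 ± 0.561 (SD, n = 2) TPM in sham and 64.7 ± 0.339 (SD, n = 2) after PNX. Dll4 had 8399 and 8329 normalized counts in sham against 6562 and 6614 after PNX, with no overlap. This was a log2FC of -0.34 (SE 0.023, edgeR adjusted p = 2.4e-20), a fall of 21.3%. Endothelial scaling gave -0.10 (edgeR adjusted p = 5.4e-04). A noncoding gene, Gm14207, with 3444 counts over the 4 libraries, overlaps the start of Dll4, and reads there cannot be told apart, since it is not stated whether the counting used strand.

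The promoter of Dll4 is given for comparison with that of Notch3, as the most abundant ligand and one that was lower under both scalings. It covers chr2:119325534-119325786 (GRCm38.p6, plus strand), from 250 bases before the start to 3 after it, with the N box in capitals.
Dll4: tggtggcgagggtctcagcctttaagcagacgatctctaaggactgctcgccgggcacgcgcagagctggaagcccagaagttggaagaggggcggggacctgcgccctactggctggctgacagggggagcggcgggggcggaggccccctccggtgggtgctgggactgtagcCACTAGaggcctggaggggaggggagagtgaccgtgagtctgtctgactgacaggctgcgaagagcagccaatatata
The single N box, CACTAG, lies from 75 to 70 bases before the start. Notch3, which was higher, and Dll4, which was lower, thus both held this motif.

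Dll1, a ligand first known from the developing embryo, lies on chromosome 17 from 15367354 to 15376932 and had the largest fall among the ligands. Sham libraries held 5070 and 5415 normalized counts, post-PNX libraries 3769 and 3770. The groups did not overlap, although the sham libraries were farther apart, relative to their mean, than in the other Notch genes. Dll1 had a log2FC of -0.47 (SE 0.029, edgeR adjusted p = 2.4e-22), and one of -0.23 under endothelial scaling (edgeR adjusted p = 3.0e-07). A lower log2FC was found in 9.85% of all genes tested.

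The Jagged ligands had smaller changes than the Delta-like ligands under TMM scaling. Jag1 lies on chromosome 2 from 137081451 to 137116520 and had 3331 and 3201 normalized counts in sham and 2997 and 3102 after PNX. The groups did not overlap, but the lowest sham library and the highest post-PNX library were close. A log2FC of -0.10 (SE 0.032, edgeR adjusted p = 0.00437) turned into 0.14 under endothelial scaling. The call was lost in DESeq2's Wald test (adjusted p = 0.0672), without sham replicate 1 (edgeR adjusted p = 0.0966) and without PNX replicate 1 (edgeR adjusted p = 0.118).

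Jag2, on chromosome 12 from 112907803 to 112929812, was the only ligand that rose under TMM scaling (Jag1 was also higher under endothelial scaling). With 4255 and 4251 normalized counts in sham and 4622 and 4693 after PNX, the groups did not overlap. Jag2 had a log2FC of 0.13 (SE 0.027, edgeR adjusted p = 3.3e-05), and one of 0.37 under endothelial scaling (edgeR adjusted p = 2.7e-11). Jag2 rose by 9.49% under TMM scaling.

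Dll4 and Jag1 are known to have opposing effects on sprouting where Fringe enzymes modify the receptor, and their ratio within a library does not depend on scaling. The ratio of Dll4 to Jag1 counts was 2.52 and 2.60 in sham and 2.19 and 2.13 after PNX. The log2 ratio was thus lower by 0.25 after PNX (1.36 ± 0.032 in sham and 1.11 ± 0.027 after PNX, SD, n = 2, p = 0.33 in a two-sided exact permutation test). With 2 libraries against 2 this is the smallest p that the test can give, so the difference, although larger than the spread between libraries, could not pass a threshold.

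The makeup of the receptors and of the ligands was also compared as shares of their summed TPM, which again do not depend on scaling. Among the receptors, the share of Notch1 went from 30.6% ± 0.162 (SD, n = 2) to 25.7% ± 0.431 (SD, n = 2) and that of Notch3 from 9.60% ± 0.0635 (SD, n = 2) to 12.7% ± 0.0827 (SD, n = 2). Notch4 held 49.9% ± 0.191 (SD, n = 2) in sham and 52.1% ± 0.399 (SD, n = 2) after PNX, and Notch2 9.83% ± 0.0923 (SD, n = 2) and 9.58% ± 0.115 (SD, n = 2). Among the ligands, Jag2 gained, from 18.7% ± 0.146 (SD, n = 2) to 24.4% ± 0.0719 (SD, n = 2), and Jag1 was at 10.6% ± 0.375 (SD, n = 2) and 11.8% ± 0.195 (SD, n = 2). Dll1 went from 27.3% ± 1.08 (SD, n = 2) to 23.3% ± 0.177 (SD, n = 2) and Dll4 from 43.3% ± 0.560 (SD, n = 2) to 40.5% ± 0.0898 (SD, n = 2). For each of the 8 genes the libraries of the groups did not overlap in these shares. In normalized counts, 81.2% of all genes tested did not overlap either. The shares within a set add up to a whole, so they are not independent.

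**Figure D3:**
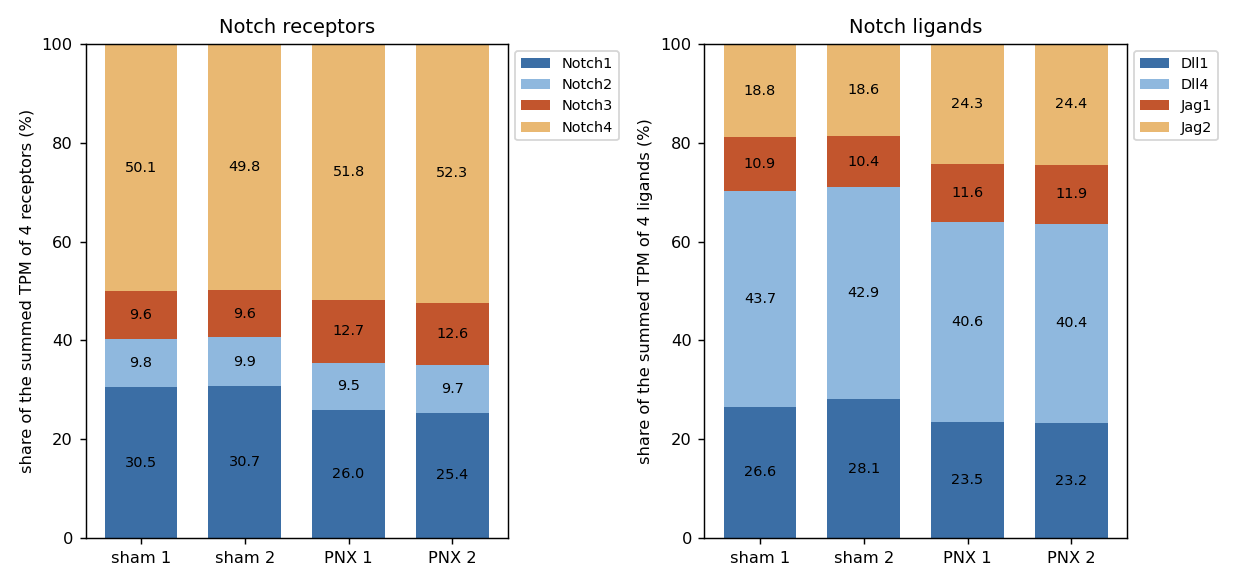
Share of the summed deposited TPM taken by each of the 4 Notch receptors (left) and by each of the 4 ligands (right), in percent, 1 bar per library, with the share printed in each segment. Notch1 is the receptor with the smaller share after PNX by the widest margin, and Jag2 the ligand whose share is larger by the widest margin.

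Of the target genes, Hey1 and Hes1 were the most abundant of the 10 genes per length. Hey1, a repressor that marks arterial endothelium, lies on chromosome 3 from 8663359 to 8667038. Hey1 had 8721 and 8680 normalized counts in sham and 6272 and 6247 after PNX, without overlap. Its log2FC of -0.47 (SE 0.023, edgeR adjusted p = 6.8e-27) was a fall of 28.1%, level with that of Dll1, with 9.80% of all genes tested lower still. Under endothelial scaling it was -0.23 (edgeR adjusted p = 6.7e-09). In TPM, Hey1 went from 137 ± 0.570 (SD, n = 2) to 96.2 ± 0.301 (SD, n = 2).

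Hes1, a repressor that responds to Notch in many cell types and to other signals as well, lies on chromosome 16 from 30065357 to 30067796. It had 6305 and 6320 normalized counts in sham and 5648 and 5628 after PNX, and the groups were apart. Its log2FC was -0.16 (SE 0.025, edgeR adjusted p = 5.6e-08), but 0.079 under endothelial scaling (edgeR adjusted p = 0.00781). Its level of 151 ± 0.130 (SD, n = 2) TPM in sham and 132 ± 0.378 (SD, n = 2) after PNX was the highest of the 10 genes in both groups.

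Ranked by TPM in sham libraries, the order was Hes1, Hey1, Notch4, Dll4, Notch1, Dll1, Jag2, Jag1, Notch2 and Notch3. Each neighbor in this order was apart from the next except Notch1 and Dll1, whose libraries overlapped at 54.3 and 55.7 against 51.3 and 54.7 TPM. Notch2 (17.4 and 17.9 TPM) and Notch3 (17.2 and 17.3 TPM) were also close. After PNX the first 5 places were the same, followed by Jag2 (38.6 and 39.2 TPM), Dll1 (37.3 and 37.2 TPM), Notch3 (21.3 and 21.1 TPM), Jag1 (18.5 and 19.1 TPM) and Notch2 (15.9 and 16.2 TPM).

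The genes nearest to Hey1 in their pattern over the 4 libraries, by Euclidean distance of centered log2 normalized counts over 13402 genes with means from 100 upward, were Tjp1, Scube2, Brwd1, Map4k2 and Cxcl15. Their distances were between 0.0079 and 0.0115 and their log2FC between -0.48 and -0.46. With 2 groups of near-identical libraries, this likeness hardly goes beyond an equal difference between the groups.

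Other genes of the pathway were taken from a list of 50 genes, of which 46 were tested. At an adjusted p under 0.01 in edgeR's quasi-likelihood test 13 were higher and 18 lower after PNX, and 15 did not pass. Over all genes tested 29.3% were higher and 27.8% lower. The median log2FC of the list was -0.0028. Under endothelial scaling 28 were higher and 7 lower, where 56.5% and 9.17% of all genes were. DESeq2's Wald test gave 8 higher genes in place of 13, and the share of all genes that it called was not computed. Past the threshold of a log2 fold change beyond 1 there was 1 higher gene, Dlk1, and 1 lower gene, Hes2, both of low counts. Over all genes tested 5.9% were higher and 1.66% lower by this rule.

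Of 10 genes of receptor cleavage 6 were higher and 1 lower at an adjusted p under 0.01, with a median log2FC of 0.12, where 29.3% of all genes were higher and 27.8% lower. DESeq2's Wald test called 4 of them higher and 0 lower, and the share of all genes that it called was not computed. Adam10, the protease that makes the first ligand-induced cut, had 9248 and 9347 normalized counts in sham and 10844 and 10719 after PNX, a log2FC of 0.21 (edgeR adjusted p = 2.3e-13). Adam17, a related protease, had a log2FC of 0.22 (edgeR adjusted p = 3.3e-11). Both were higher under endothelial scaling as well, at 0.46 each, as were 9 of the 10 genes and 56.5% of all genes.

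In the nuclear complex 6 of 9 genes were lower and only Rbpj was higher, where 27.8% and 29.3% of all genes were. Rbpj, the DNA-binding partner of the cleaved receptor, had 2874 and 2763 normalized counts in sham and 3072 and 3034 after PNX, a log2FC of 0.11 (edgeR adjusted p = 0.00150), and its call was lost in DESeq2's Wald test (adjusted p = 0.0437). The acetyltransferases Ep300 and Crebbp had log2FC of -0.46 and -0.44, and the coactivators Maml1, Maml2 and Maml3 had -0.24, -0.32 and -0.37, these 5 genes being named after their values were seen. Under endothelial scaling 2 genes of the complex, Ep300 and Crebbp, were lower and 3 higher, where 9.17% and 56.5% of all genes were.

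Of the 5 genes of receptor glycosylation 2 were lower and none higher, where 27.8% and 29.3% of all genes were. The Fringe enzymes, which tune the response of a receptor to Delta-like and Jagged ligands, had log2FC of -0.068 for Lfng (edgeR adjusted p = 0.0406, not passing), -0.16 for Mfng (edgeR adjusted p = 1.8e-06) and -0.17 for Rfng (edgeR adjusted p = 0.00119). The call of Rfng was lost in DESeq2's Wald test (adjusted p = 0.0419). Under endothelial scaling all 5 had values above 0, from 0.070 to 0.25, and 3 were higher, as were 56.5% of all genes.

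The genes of ligand endocytosis, through which a ligand pulls on its receptor, split evenly in edgeR's test. Of the 4, 2 were higher and 2 lower, where 29.3% and 27.8% of all genes were. Neurl1a was among those that rose, with 167 and 137 normalized counts in sham and 198 and 199 after PNX (log2FC 0.38, edgeR adjusted p = 0.00437), a call that DESeq2's Wald test did not make (adjusted p = 0.0848). The 2 that fell were Mib1 (log2FC -0.34, edgeR adjusted p = 3.2e-13) and Mib2 (-0.31, edgeR adjusted p = 1.5e-12). Both kept their calls in DESeq2's Wald test (adjusted p = 8.4e-10 and 3.8e-09). Under endothelial scaling 2 of these 4 genes were higher and none lower, where 56.5% and 9.17% of all genes were. Of 11 inhibitors and modifiers 5 were lower and 2 higher, where 27.8% and 29.3% of all genes were. Numb, an inhibitor of the receptors, fell under TMM scaling (log2FC -0.26, edgeR adjusted p = 7.5e-17) and the related Numbl rose (0.39, edgeR adjusted p = 1.0e-09). Spen, a corepressor that binds RBPJ, had the lowest value of the group at -0.56 (edgeR adjusted p = 6.8e-26), followed by the Deltex gene Dtx1 at -0.48. Nrarp, a feedback inhibitor induced by Notch, had 2158 and 2093 normalized counts in sham and 2148 and 2253 after PNX, and the groups overlapped (log2FC 0.048, edgeR adjusted p = 0.253). Under endothelial scaling 7 of these 11 genes were higher and 3 lower, where 56.5% and 9.17% of all genes were. Numb was then at -0.016 and Nrarp at 0.29.

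Further targets and Hes and Hey family genes moved in both directions. Efnb2, an arterial ephrin ligand, fell from 21317 and 21655 to 13731 and 13987 normalized counts (log2FC -0.63, edgeR adjusted p = 3.2e-37), and was at -0.39 under endothelial scaling. Heyl, a target gene known from mural cells, rose from 1419 and 1505 to 2295 and 2309 (log2FC 0.66, edgeR adjusted p = 8.6e-23), and was at 0.90 under endothelial scaling. It thus rose together with Notch3 and the mural markers, whose part was not tested. Hey2 had 228 and 212 normalized counts in sham and 225 and 275 after PNX, with overlapping groups (log2FC 0.17, edgeR adjusted p = 0.141), and was higher under endothelial scaling (0.41, edgeR adjusted p = 0.00150). Hes5 and Hes3 had at most 2 counts in any library, Dll3 had 0 in all, and Dlk2 had 10 and 6 in sham against 3 and 1 after PNX, and none of these was tested.

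The promoter of Hey2 is shown as the Hey gene with an entry in the RefSeq table and as an example of the RBPJ site that the windows of the ligands and receptors lacked. It covers chr10:30842781-30843033 (GRCm38.p6, minus strand), again from 250 bases before the start to 3 after it, with matches to GTGGGAA on either strand in capitals.
Hey2: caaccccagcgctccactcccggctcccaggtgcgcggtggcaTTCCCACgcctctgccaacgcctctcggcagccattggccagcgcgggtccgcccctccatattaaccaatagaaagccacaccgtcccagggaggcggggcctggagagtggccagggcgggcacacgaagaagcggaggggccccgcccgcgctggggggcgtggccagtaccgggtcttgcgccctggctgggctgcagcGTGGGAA
The first match, TTCCCAC, is on the opposite strand from 207 to 201 bases before the start, and the second, GTGGGAA, runs from 4 bases before the start to 3 after it. A match to GTGGGAA was present in 6.38% of all windows and at least 2 matches in 0.256%. Of the other target genes searched, Hes5 also held 2 matches to GTGGGAA, while Nrarp and Efnb2 held 0 matches to either form. As given above, Hey2 had few counts in these libraries, and Hes5 had at most 2 in any.

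Dlk1, a Delta-like protein without the part that activates the receptor, had 1 and 3 counts in sham, against 50 and 43 after PNX. The ratio per depth was 25.4 (95% exact interval of 9.59 to 95.1, for counting error only), and the fitted log2FC, which depends on the prior count, was 4.57 (SE 0.46, edgeR adjusted p = 2.3e-13). Hes2 went from 67 and 52 to 17 and 11 counts (log2FC -1.96, edgeR adjusted p = 1.5e-08). Both genes averaged under 50 counts per library.

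**Figure D4:**
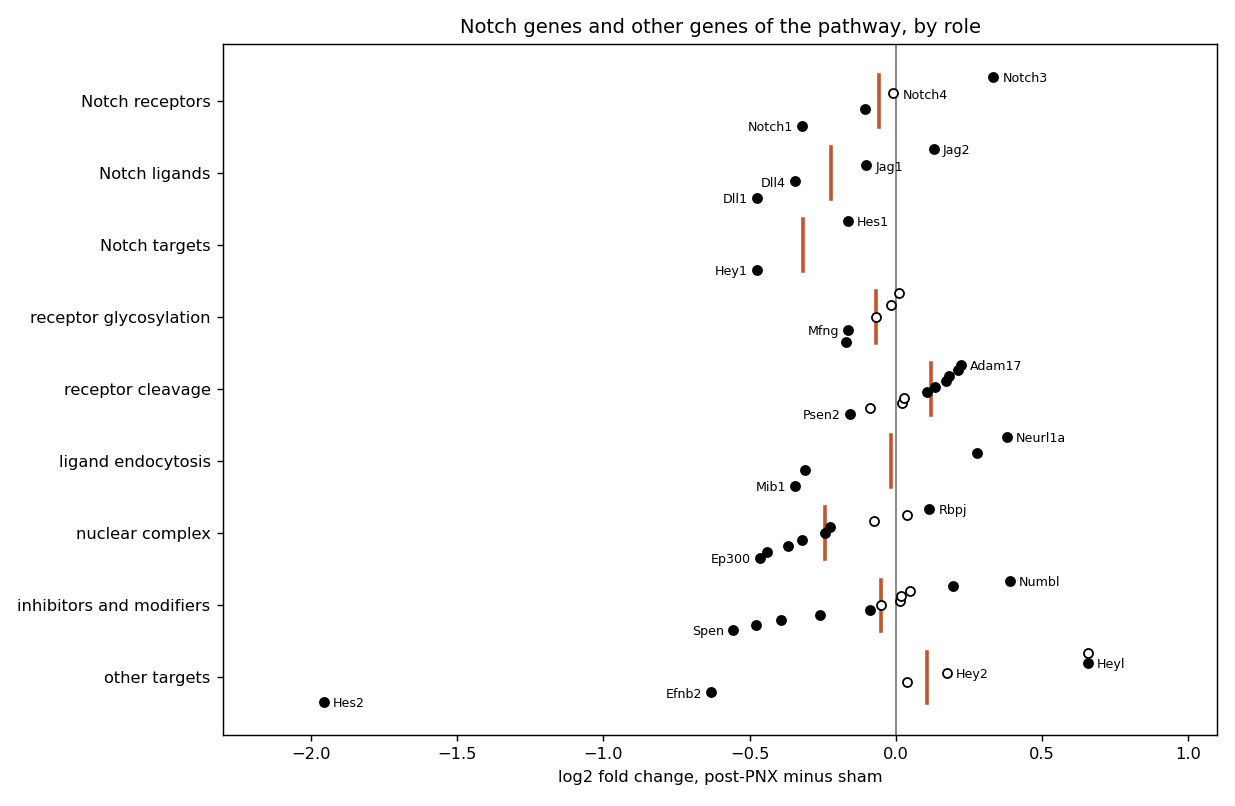
Log2 fold changes (post-PNX minus sham, TMM scaling) of the 10 Notch genes and of the other pathway genes tested, 1 point per gene, by role, filled where the edgeR adjusted p was under 0.01 and open where not, with medians as orange lines and Dlk1, at 4.57, not drawn. The cleavage genes have a median of 0.12 and the nuclear complex one of -0.24, and under endothelial scaling all points shift right by about 0.24.

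Markers of endothelial and other cell types also differed between the groups. Over all genes tested 27.8% were lower and 29.3% higher, and under endothelial scaling 9.17% and 56.5%. Arterial endothelial markers, beside which the arterial genes Hey1 and Dll4 can be set, were mixed. Of 7 such genes 4 were lower and 3 higher. The lower ones were Efnb2 (log2FC -0.63), Bmx (-0.24), Cxcl12 (-0.22) and Gja5 (-0.11). The higher ones were Gja4 (a gap junction gene of arteries) at 0.61, Unc5b at 0.49 and Sox17 (an arterial transcription factor) at 0.19. DESeq2's Wald test did not call Bmx (adjusted p = 0.0239) or Gja5 (adjusted p = 0.0979). The 4 general capillary markers were all lower (median -0.55), the 4 venous markers were 2 higher and 2 lower (median 0.032), and so were the 4 aerocyte markers (median -0.11). Under endothelial scaling 4 arterial markers were higher and 1, Efnb2, lower, all 4 venous markers were higher, and the 4 capillary markers were still lower. Endothelial markers summed to between 507183 and 512540 normalized counts in sham and between 434802 and 436957 after PNX. Relative to these markers, as in endothelial scaling, Notch1, Dll1, Dll4 and Hey1 were still lower. The 12 markers themselves then ran from -0.26 (Tek) to 0.35 (Emcn), 5 being lower and 4 higher, and these Notch genes lay within that range. What part the kinds of endothelial cells had in this was not tested.

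Cell types other than endothelium changed as well. All 8 epithelial markers were lower (median -0.66), and their summed normalized counts went from between 420405 and 422743 to between 251343 and 254339. Lung epithelium is also known to express Notch ligands and receptors. The 4 B cell markers (median -0.82) and the 5 T cell markers (median -0.86) were lower, the 7 macrophage markers (median 1.22) and the 4 mesothelial markers (median 1.52) were higher, and of 8 fibroblast markers 5 were higher and 2 lower (median 1.36). These directions held under endothelial scaling, except that 7 fibroblast markers were higher and none lower. Ptprc had a log2FC of -0.0031. No marker of these lists was at 0 in any library. The study's methods describe a FACS check of the isolated cells for CD31 and VE-cadherin and for the absence of CD45. What part the epithelial, blood and stromal cells had in the levels of the Notch genes was not tested.

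**Figure D5:**
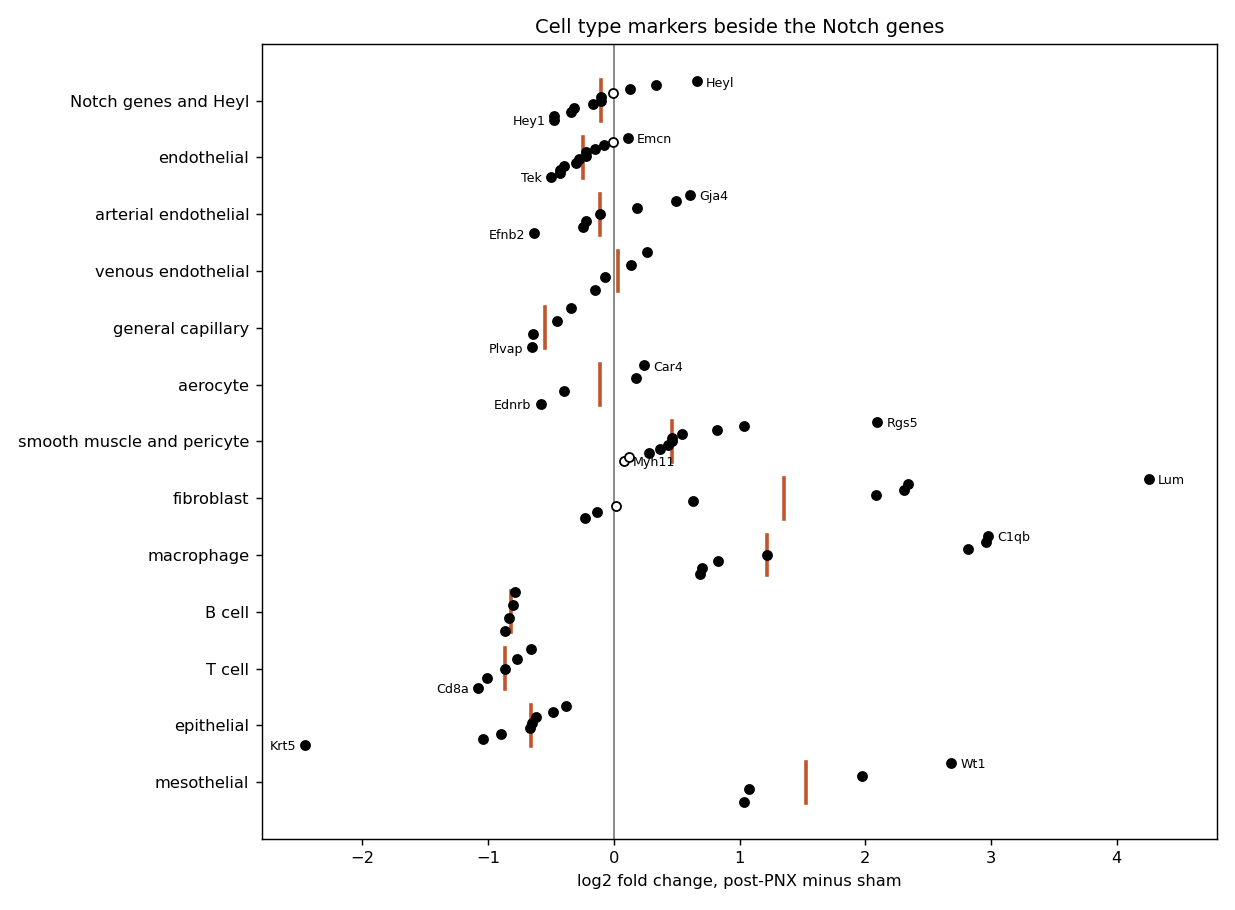
Log2 fold changes (post-PNX minus sham, TMM scaling) of cell type markers, 1 point per gene, beside the 10 Notch genes and Heyl in the top row, filled where the edgeR adjusted p was under 0.01 and open where not, with medians as orange lines. Most endothelial markers lie left of 0 and all smooth muscle and pericyte markers right of it, and under endothelial scaling all points shift right by about 0.24.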

How the data were processed

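RNA of CD31-selected lung cells was sequenced in 4 libraries, 2 sham and 2 post-PNX, with groups and replicate numbers taken from the sample titles. Per the methods of the study, a kit that keeps the strand of mRNA was used, fragments were read from both ends, and reads were aligned to mm10. The submitters' processing notes name STAR, and the counting program and its use of strand are not given in the sources used here. The authors deposited, for 33068 RefSeq transcripts, whole-number counts without normalization, and the FPKM and TPM values they derived from them (FPKM was not used). A read can count for several transcripts of a gene, so each symbol was taken by its transcript with the most counts, and TPM is relative to all transcripts.

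The test was run with edgeR 4.0.16 (R 4.3.3): filterByExpr, TMM, and the quasi-likelihood F test of post-PNX against sham without covariates, adjusted over 16208 genes. The standard error is the log2 fold change divided by the square root of F. Normalized counts are scaled to the mean library size. Calls used an adjusted p under 0.01, with or without a log2 fold change beyond 1. A count of 3 corresponds to between 0.0589 and 0.0725 CPM, for counting error only. The steps were checked on simulated data.

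The members and lists were chosen with earlier results of these data known. Genes named beyond the 10 members were Dlk1 and Hes2 (past both thresholds), set pathway genes, and the 3 largest rises and 3 largest falls among genes of the list that averaged 100 normalized counts or more. Ep300, Crebbp, Maml1, Maml2, Maml3, Mib1 and Mib2 were added outside this rule, after their values were seen. Adgre1 was found under its older symbol. Alternatives were DESeq2 1.42.0 (size factors, Wald test), library size alone, endothelial scaling, other filters and thresholds, glmTreat, summed transcripts, a replicate block and leaving out each library. Promoters come from RefSeq (GRCm38.p6). The p-values set the difference between the groups against the spread between these pooled libraries, which is not the spread between mice.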

Additional observations from a re-analysis of the deposited data

How the results depend on the processing

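Of the 10 Notch genes, Notch1, Notch3, Dll1, Dll4, Jag2 and Hey1 kept their direction and their call under all alternatives tried. Under endothelial scaling Notch2 (0.14), Notch4 (0.23), Jag1 (0.14) and Hes1 (0.079) reversed, so that 6 members were higher and 4 lower in place of 2 and 7, and of the other pathway genes 28 were higher and 7 lower in place of 13 and 18. This follows from the shift of all genes by 0.24. Notch4, which was not called, ranged from -0.017 to 0.0013 with a library left out, being above 0 without sham replicate 2 (0.0013) and without PNX replicate 1 (6.1e-04). DESeq2's Wald test lost Notch2 and Jag1 and gave 5 lower members and 8 higher pathway genes. The share of all genes called was computed only for edgeR's test under TMM and endothelial scaling. The fit on counts summed over transcripts lost Jag1 (adjusted p = 0.0176 from edgeR), although Jag1 has 1 transcript and so the same counts. Its log2FC was -0.10 in both fits, with an SE of 0.034 in place of 0.032. With each library left out, lower members numbered from 5 to 7, higher members 2, higher pathway genes from 8 (without PNX replicate 1) to 13 and lower pathway genes from 16 to 17. Requiring a mean of 50 counts or more left 0 pathway genes past 2-fold in either direction, since Dlk1 and Hes2 were not tested, and summed transcripts gave 2 lower ones. The difference of the Dll4 to Jag1 log2 ratio lay between -0.27 and -0.22 with a library left out. The replicate block gave the same counts, 2 higher and 7 lower members, 13 higher and 18 lower pathway genes. The replicate numbers do not pair the libraries, which come from different mice, and the differences between replicates 1 and 2 were not correlated between groups (r = 0.030 across genes, which are not independent). The counts of Dll3, Dlk2, Hes3 and Hes5 were too low to be tested.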
